A study of Sus scrofa with 30 samples.

Results

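Endometrium of gilts on day (D) 20 of pregnancy (PD20) was compared with endometrium from D16 of pregnancy (PD16) by small RNA sequencing. All libraries labelled with either day were used, 6 for PD20 and 5 for PD16, 11 of the 30 libraries in the series. The other libraries came from PD12 (5), which entered the same statistical model, and from the estrous cycle, of which CD16 (5) and CD20 (5) served for a test of whether the change between days was the same without pregnancy. All animals were Hampshire x Duroc crossbred gilts aged 7 to 8 months from a single herd, and PD groups had been inseminated after the third estrus. On D16 the conceptuses had been flushed from the uterine horns with buffer, whereas on D20 trophoblasts with embryos had been dissected off the opened horns and the endometrium was taken at the implantation sites. The day, the way of removing the conceptus and the place of sampling therefore cannot be told apart in any difference given here. Each library was made from total RNA of endometrial tissue, in which fewer cells of a type and less RNA per cell cannot be told apart. The labels number the samples as biological replicates.

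MicroRNAs (miRNAs) are RNAs of about the length of the sequences printed here that guide Argonaute proteins to messenger RNAs, mainly through bases 2 to 8 of their 5' end, the seed. Drosha and Dicer cut them from a hairpin precursor, and slightly different cuts, trimming or added bases give isomiRs, variants of a canonical sequence with a longer (ADD) or shorter (DEL) end. In the pig the conceptus elongates, attaches to the luminal epithelium and stays superficial, and D16 to D20 covers this attachment and the first growth of the placenta.

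Reads were counted by exact match on all annotated miRNA and isomiR sequences, which are called listed sequences here. They were also summed into 239 miRNA arms and into 169 families with the same seed. A level is given as normalized reads, which are counts per 1000000 reads on the listed sequences (CPM) after TMM scaling, and log2FC is the log2 of PD20 over PD16 from edgeR. A sequence was called when the adjusted p of the quasi-likelihood F-test of edgeR was under 0.05 and the log2FC was above 1 or below -1. The PD16 libraries held between 2029729 and 3424813 deposited reads and the PD20 libraries between 2268604 and 5638581, of which 79.2% ± 2.93 (SD, n = 5) and 78.2% ± 2.12 (SD, n = 6) fell on the listed sequences.

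The sequences on which the comparison turned are printed as deposited, 5' to 3' with T for U and with the seed in capitals. Those called are shown with the canonical form they derive from, so that the end that differs can be read off.
miR-146b canonical: tGAGAACTgaattccataggc
miR-146b 3' ADD TGT: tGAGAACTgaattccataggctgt
miR-146a-5p canonical: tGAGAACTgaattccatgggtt
miR-302: tAAACGTGgatgtacttgcttt
miR-10b canonical: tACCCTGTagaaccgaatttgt
miR-10b 3' DEL T: tACCCTGTagaaccgaatttg
miR-10b 5' DEL T 3' DEL T: aCCCTGTAgaaccgaatttg
miR-143-3p canonical: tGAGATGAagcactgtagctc
miR-143-3p 3' DEL CTC: tGAGATGAagcactgtag
miR-193: aACTGGCCcacaaagtcccgc
miR-193b-3p: aACTGGCCcacaaagtcccgct
miR-146b and miR-146a-5p have the same seed, the form of miR-10b that lacks its first base has another seed than canonical miR-10b, and the sequence listed as miR-193 is that of miR-193b-3p without the last base, so that the names miR-193 and miR-193b-3p describe nested reads.

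One PD20 library stood apart in its miRNAs of muscle. In PD20 no. 1, miR-143-3p, which is abundant in smooth muscle, took 40.6% of the reads on listed sequences, against 6.62% to 12.8% in the other 10 libraries. The same library held 39147 normalized reads of miR-1 3' ADD T, the main form of the muscle miRNA miR-1 in these data, while the next highest PD20 library had 7772. It also was the largest of the 11 libraries. The fits and their numbers of calls were therefore repeated without it. The median Spearman correlation of PD20 no. 1 with its own group was 0.888. This correlation was lowest in PD16 no. 1 (0.861) and PD20 no. 4 (0.864).

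Of the listed sequences, 5 were called and all were higher on PD20 (0.573%), whereas 0 were called lower (0%). At an unadjusted p under 0.05 there were 69 higher (7.9%) and 55 lower (6.3%) sequences, 14.2% in all. DESeq2 called 12 higher and 3 lower. The median log2FC of all listed sequences was -0.06. Without PD20 no. 1, 4 sequences were called. In 13 sequences (1.49%) the levels of the PD16 and PD20 libraries did not overlap, 4 of the 5 called among them.

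**Figure D1:**
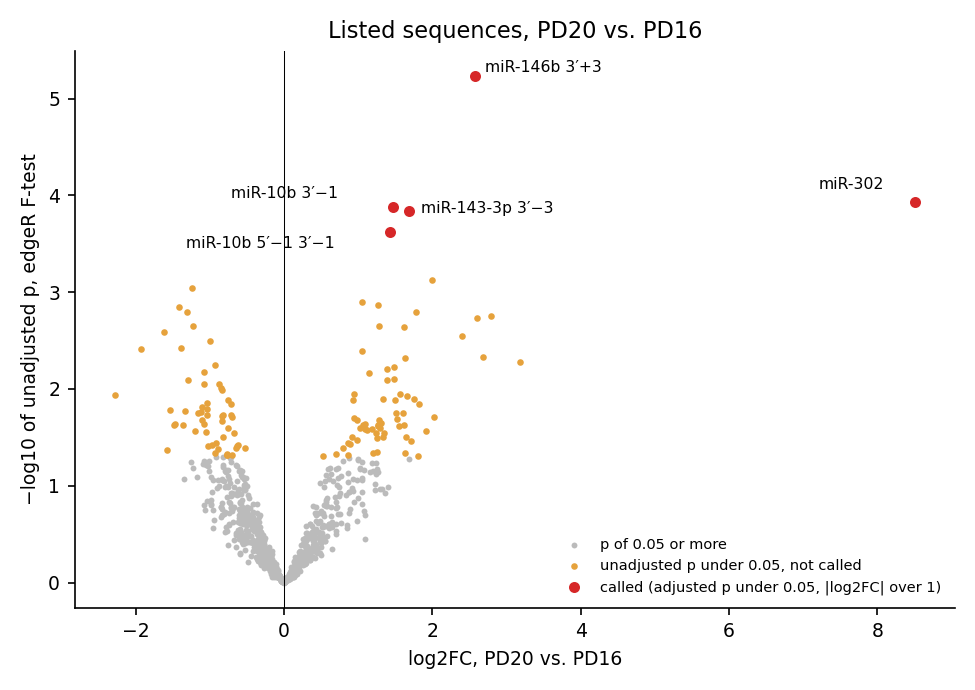
Log2FC of PD20 vs. PD16 (x axis) against -log10 of the unadjusted p of the edgeR F-test (y axis) for the listed sequences, where 3′ or 5′ with a signed digit gives the bases added or missing at that end. The 5 called sequences (red) all lie on the side of PD20, and miR-302 stands far to the right because none of the PD16 libraries held a read of it.

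miR-146b, which is induced through NF-kB and restrains Toll-like receptor signalling, showed the smallest p. Its form with 3 added bases had 72.4, 45.0, 31.5, 38.7 and 58.2 normalized reads in the PD16 libraries. In the PD20 libraries it had 304, 455, 182, 402, 318 and 91.5. Every PD20 library was thus above every PD16 library, with PD20 no. 6 the lowest of its group. The means were 49.2 ± 16.3 (SD, n = 5) and 292 ± 136 (SD, n = 6), and the log2FC was 2.57 ± 0.42 (SE, edgeR adjusted p = 0.0051). The call was kept in each of 16 fits with 1 pregnancy library left out, with log2FC between 2.40 and 2.81. On PD12 the form had between 55.3 and 164 normalized reads, with a mean of 103 ± 45.9 (SD, n = 5), and the PD12 and PD16 libraries overlapped.

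The other listed forms of miR-146b did not pass the adjusted threshold. Canonical miR-146b had a log2FC of 1.62 ± 0.51 (SE, edgeR adjusted p = 0.166), the form with 2 added bases 1.29 ± 0.37 (SE, edgeR adjusted p = 0.118) and the form with 1 added base 0.58 ± 0.37 (SE, edgeR adjusted p = 0.473). Summed over its 4 forms, miR-146b was called and rose from 94.3 ± 34.2 (SD, n = 5) to 443 ± 196 (SD, n = 6) normalized reads, a log2FC of 2.23 ± 0.37 (SE, edgeR adjusted p = 0.00197). PD20 no. 6, with 132, lay below PD16 no. 1, with 149. The mean 3' end of miR-146b reads lay 2.19 ± 0.09 bases beyond the canonical end on PD16 (SD, n = 5) and 2.56 ± 0.09 on PD20 (SD, n = 6), without overlap of the groups. Its exact two-sided permutation p was 0.0043, the smallest that 5 against 6 libraries allow, and 0.218 after adjustment over 88 miRNA arms.

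miR-146a-5p, transcribed from another gene but with the same seed, had 145 ± 52.0 (SD, n = 5) and 220 ± 102 (SD, n = 6) normalized reads in sum, with a log2FC of 0.59 ± 0.37 (SE, edgeR adjusted p = 0.444). The seed family GAGAACT, to which both belong, rose from 252 ± 81.9 (SD, n = 5) to 640 ± 269 (SD, n = 6), a log2FC of 1.35 ± 0.33 (SE, edgeR adjusted p = 0.0332), with 5 of 6 PD20 libraries above all PD16 libraries.

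miR-302 belongs to a cluster that is a mark of pluripotent and early embryonic cells. The listed sequence carries an Ensembl gene identifier and took the name miR-302 from an RT-PCR assay for the same sequence. No PD16 and no PD12 library held a read of it, and the PD20 libraries held 7, 4, 11, 117, 48 and 121 reads. PD20 no. 4, 5 and 6 thus carried most of the reads, and each of the other PD20 libraries held 11 or fewer. In normalized reads the PD20 level was 17.6 ± 17.9 (SD, n = 6), at least 12.2-fold higher than the level that 3 reads in each PD16 library would give (edgeR adjusted p = 0.0314). A count of 0 in a PD16 library allows up to 3 reads, which covers counting error only. By the paper's methods, sequences were annotated when they had a minimum of reads in most libraries of any group. With 0 reads in the PD12, PD16, CD12 and CD16 libraries and at most 2 in any CD20 library, miR-302 met this through PD20 alone. Its edgeR test is therefore not independent of that filter.

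Deposited reads of any abundance that share 13 bases with the miR-302 sequence, the listed sequence included, showed the same split by day. The counts given above are part of these, so this is not a second observation. They numbered 17, 8, 16, 241, 76 and 265 in the PD20 libraries, and 0, 0, 0, 0 and 1 in the PD16 libraries. Elsewhere, 2 CD20 libraries held 3 and 2 such reads, 1 PD12 library 3 and 1 CD12 library 1. Of 9 embryonic names used for comparison, only miR-302 without a letter was among the listed sequences. It gives neither arm nor member, so miR-302a to miR-302d, also among the 9, cannot be told apart from it. The other names could not be read from the list. Whether embryonic or trophoblast cells were left on the D20 endometrium was not tested.

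**Figure D2:**
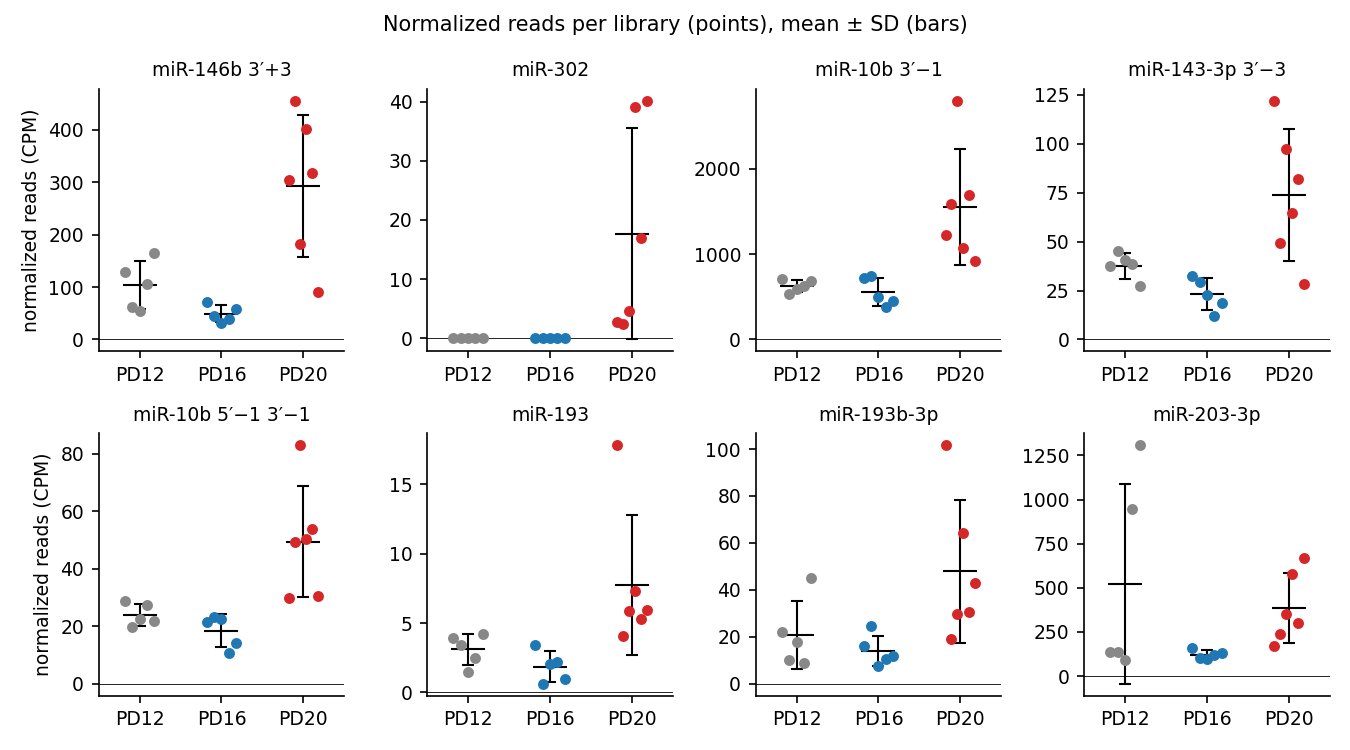
Normalized reads (CPM, y axes differ) in each PD12, PD16 and PD20 library for the 5 called sequences and for miR-193, miR-193b-3p and miR-203-3p, with means ± SD as black bars and bases added or missing at an end given as signed digits. miR-302 is at 0 in all PD12 and PD16 libraries, and PD20 no. 1 is the first and highest red point of miR-193 and miR-193b-3p.

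miR-10b, whose gene lies in a HOX cluster and which is among the most abundant miRNAs of the endometrium, was called in 2 of its short forms. The form that lacks the last base had 718, 745, 494, 385 and 449 normalized reads in the PD16 libraries, against 1221, 1588, 2794, 1077, 1687 and 924 in the PD20 libraries. All PD20 libraries were above all PD16 libraries. The log2FC was 1.47 ± 0.31 (SE, edgeR adjusted p = 0.0314). The form that in addition lacks the first base, and so presents the seed CCCTGTA, rose from 18.5 ± 5.65 (SD, n = 5) to 49.5 ± 19.4 (SD, n = 6), again without overlap, with a log2FC of 1.42 ± 0.32 (SE, edgeR adjusted p = 0.0414).

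Canonical miR-10b was not called. It had 44946 ± 52810 (SD, n = 5) normalized reads on PD16 and 40486 ± 16358 (SD, n = 6) on PD20, with a log2FC of -0.15 ± 0.52 (SE, edgeR adjusted p = 0.921). The forms with 2 added bases had log2FC of -0.47 ± 0.47 and -0.59 ± 0.53 (SE), and that without the last 2 bases 1.05 ± 0.28 (SE, edgeR adjusted p = 0.114). Summed over 11 forms miR-10b had a log2FC of 0.18 ± 0.46 (SE, edgeR adjusted p = 0.87).

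miR-143-3p 3' DEL CTC, the shortest listed form of the smooth muscle miRNA, had 32.3, 29.4, 22.7, 12.2 and 18.5 normalized reads in the PD16 libraries and 122, 49.2, 97.0, 64.8, 81.7 and 28.5 in the PD20 libraries. Only PD20 no. 6 fell within the range of PD16. The log2FC was 1.68 ± 0.36 (SE, edgeR adjusted p = 0.0314) and 1.53 without PD20 no. 1, with an edgeR adjusted p of 0.0505. Canonical miR-143-3p differed more between the fits, with a log2FC of 1.3 ± 0.54 (SE, edgeR adjusted p = 0.264) that became 0.25 without this library.

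**Figure D3:**
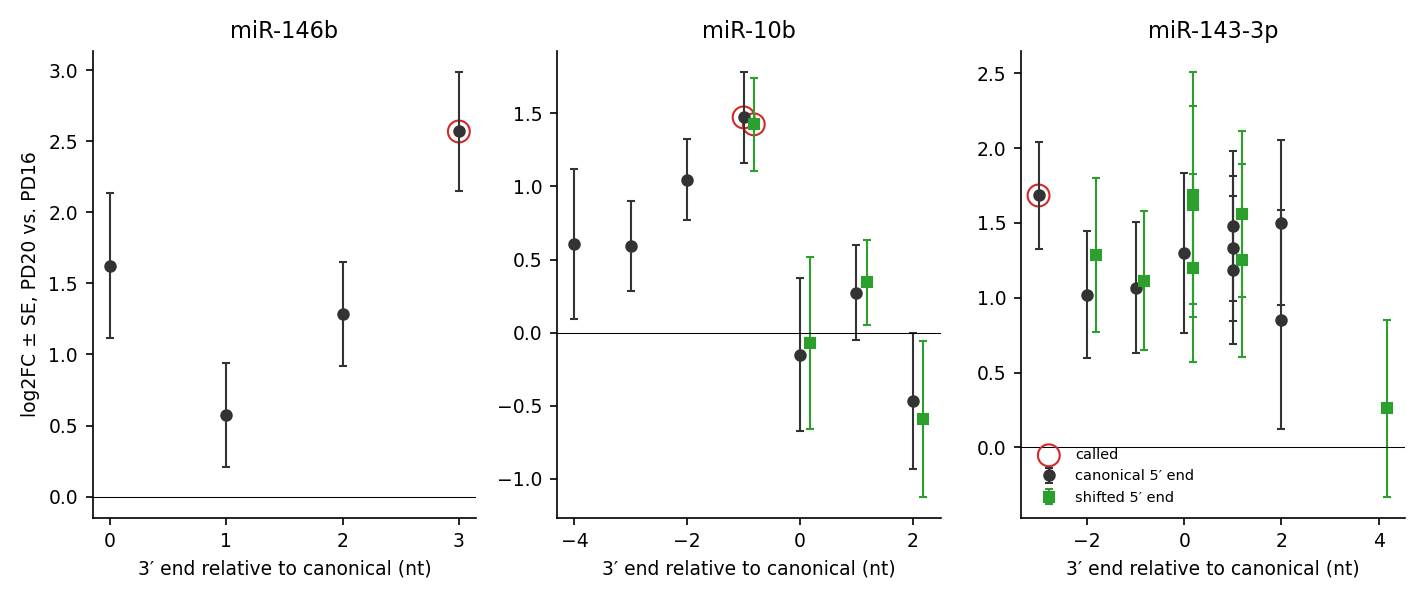
Log2FC ± SE (PD20 vs. PD16, y axes differ) of each listed form of miR-146b, miR-10b and miR-143-3p against the position of its 3' end in nt relative to the canonical end, leaving out forms whose end is 5 or more nt away, with called forms circled. In miR-10b the forms that lack 1 base lie highest, at 1.47 and 1.42, and those with 2 added bases lowest, and in miR-146b the form with 3 added bases lies highest.

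miR-193b-3p, a miRNA of epithelial, fat and muscle cells that targets genes of proliferation, was called at the level of arms. Its sum had 20.5, 25.9, 7.88, 9.82 and 10.5 normalized reads in the PD16 libraries and 119, 23, 40.0, 80.1, 40.0 and 49.4 in the PD20 libraries. Only PD20 no. 2 fell within the PD16 range. The log2FC was 1.99 ± 0.49 (SE, edgeR adjusted p = 0.0419). The nested sequence listed as miR-193 rose from 1.71 ± 1.01 (SD, n = 5) to 8.26 ± 5.04 (SD, n = 6), a log2FC of 2.21 ± 0.50 (SE, edgeR adjusted p = 0.0209). Their common seed family, ACTGGCC, rose from 17.2 ± 7.26 (SD, n = 5) to 63.3 ± 34 (SD, n = 6) without overlap, with a log2FC of 1.89 ± 0.43 (SE, edgeR adjusted p = 0.0305). Without PD20 no. 1, the highest library, miR-193 and miR-193b-3p had log2FC of 1.80 and 1.67 and edgeR adjusted p of 0.0602 and 0.0811, and their family had 1.64 and 0.0596. Taken one by one, neither sequence was called, with edgeR adjusted p of 0.108 and 0.114.

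In all, 4 of 239 miRNA arms (1.67%) were called, miR-146b, miR-302, miR-193 and miR-193b-3p, and 3 of 169 seed families (1.78%), those of miR-302, miR-193b-3p and miR-146. All were higher on PD20. miR-193 and miR-193b-3p are nested sequences, and the arm and the family of miR-302 hold 1 listed sequence. These are therefore not separate results. Without PD20 no. 1, 2 arms and 2 families were called. At an unadjusted p under 0.05 there were 25 higher (10.5%) and 12 lower (5.02%) arms, and 15 higher (8.88%) and 14 lower (8.28%) families. The levels of the days did not overlap in 3 arms (1.26%) and 5 families (2.96%), among them the arms of miR-302 and miR-193 and the families of miR-302 and miR-193b-3p. The next arm by p was the sequence listed under ENSSSCG00000026388, with 9.27 ± 7.08 (SD, n = 5) and 51.9 ± 44.0 (SD, n = 6) normalized reads (edgeR adjusted p = 0.0576).

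The calls other than miR-146b were close to the threshold. When PD16 no. 2, 3, 4 or 5, or PD20 no. 3 or 5, was left out, 1 sequence remained called, miR-146b 3' ADD TGT, whereas leaving out PD16 no. 1 gave 9 calls and PD20 no. 6 gave 8. The highest edgeR adjusted p in these fits was 0.113 for miR-302, 0.115 for miR-10b 3' DEL T and miR-143-3p 3' DEL CTC, and 0.137 for miR-10b 5' DEL T 3' DEL T. Leaving out PD16 no. 3, PD16 no. 5 or PD20 no. 4 left 0 families called, with 23, 25 and 27 families at an unadjusted p under 0.05. At the level of arms, miR-146b and miR-302 were called in all 16 such fits. The arm of miR-302 holds 1 listed sequence, which was called in 10 of the 16 at the level of sequences.

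No sequence was called in the direction of PD16. The 10 of smallest p on that side were forms of miR-411 and miR-127, then miR-23b, miR-92b-3p, miR-1249, miR-181d-5p 3' DEL T, miR-449a and miR-361-5p, with edgeR adjusted p between 0.113 and 0.192. miR-411 5' DEL A 3' ADD G, with the sequence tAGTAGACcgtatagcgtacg, had 19.4, 12.5, 8.78, 9.96 and 11.8 normalized reads on PD16 and between 3.37 and 6.37 on PD20, without overlap. Canonical miR-127 (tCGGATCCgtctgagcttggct) had between 40.8 and 51.1 on PD16 and between 16.4 and 31.2 on PD20, also without overlap. Their log2FC were -1.24 ± 0.32 and -1.001 ± 0.30 (SE, edgeR adjusted p = 0.113 and 0.141).

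Both miR-411 and miR-127 come from the imprinted DLK1-DIO3 region, which in mammals carries a large cluster of miRNAs made from the maternal chromosome and active in embryo, placenta and brain. Of 43 miRNAs of this region on a list, 18 were found, with 39 sequences. With the quasi-likelihood test of edgeR 0 were called, 15 had an unadjusted p under 0.05 and a lower level on PD20, 0 had one with a higher level, and 35 of 39 had a log2FC below 0. Of all listed sequences, 6.3% were lower at an unadjusted p under 0.05, and 476 had a log2FC below 0 and 397 above. DESeq2 and the likelihood ratio test each called 2 of the 39, both lower on PD20, of 3 and 6 lower calls in all, and the fit of all 30 libraries called 1. Their median log2FC was -0.72, beside -0.06 for all listed sequences, and -0.73 without PD20 no. 1. The summed level was 1419, 2016, 1616, 2447 and 1297 normalized reads on PD16 and 1576, 1253, 1058, 599, 899 and 1384 on PD20, and the groups overlapped. Its most abundant sequence, miR-127 3' DEL CT, had 998 ± 472 (SD, n = 5) and 608 ± 270 (SD, n = 6) normalized reads (edgeR adjusted p = 0.518).

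Among the other 6 of the 10, miR-23b had 239 ± 92.0 (SD, n = 5) and 96.8 ± 33.5 (SD, n = 6) normalized reads, a log2FC of -1.31 ± 0.36 (SE, edgeR adjusted p = 0.114). miR-449a, a miRNA of multiciliated cells with the seed of miR-34, had 10.8, 9.38, 6.20, 0.738 and 6.16 on PD16 and between 0.379 and 3.67 on PD20. PD16 no. 4 lay within the range of PD20. miR-92b-3p had 77.7 ± 28.3 (SD, n = 5) and 33.1 ± 13.7 (SD, n = 6), and miR-361-5p 70.6 ± 38.3 (SD, n = 5) and 33.3 ± 13.1 (SD, n = 6).

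On the side of PD20, the 10 of smallest p held, beside those described, miR-10b 3' DEL GT, miR-101 3' ADD GA and miR-1. miR-101, a regulator of the histone methyltransferase EZH2, had 101, 190, 123, 218 and 170 normalized reads of this form on PD16 and 502, 369, 576, 149, 319 and 403 on PD20. PD20 no. 4 was the one library within the PD16 range, and the log2FC was 1.27 ± 0.34 (SE, edgeR adjusted p = 0.114). Canonical miR-1 had 34.7 to 75.9 on PD16 and 1655, 63.2, 162, 61.4, 124 and 73.3 on PD20. Its log2FC of 2.79 ± 0.77 (SE, edgeR adjusted p = 0.114) became 0.94 without PD20 no. 1.

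Sequences with an RT-PCR assay were looked up whatever their change. miR-203-3p, a miRNA of surface epithelium, had 162, 103, 95.5, 117 and 131 normalized reads on PD16 and 171, 241, 349, 578, 304 and 669 on PD20. The groups did not overlap, yet the log2FC of 1.66 ± 0.60 (SE) had an edgeR adjusted p of 0.243, and 2 PD12 libraries held 947 and 1308. miR-205, another epithelial miRNA, had between 0.947 and 5.00 on PD16 and between 0 and 1.74 on PD20, with at most 3 reads in any PD20 library and reads in 3 of 6 (edgeR adjusted p = 0.243). miR-30a-3p 3' DEL C had 149 ± 64.0 (SD, n = 5) and 281 ± 142 (SD, n = 6), with an edgeR adjusted p of 0.284. miR-191, miR-191 3' DEL G, let-7d-5p, miR-23a 3' DEL C, miR-148a-3p and miR-199b-5p had log2FC between -0.61 and 0.27.

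The most abundant sequences did not pass the threshold. miR-21 and miR-21 3' ADD C had log2FC of -0.20 ± 0.42 and 0.44 ± 0.33 (SE), let-7f -0.32 ± 0.24 (SE), and miR-143-3p 3' ADD T 1.33 ± 0.49 (SE), with edgeR adjusted p of 0.855, 0.545, 0.548 and 0.244. Without PD20 no. 1 the log2FC of miR-143-3p 3' ADD T was 0.51 (edgeR adjusted p = 0.417).

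Lists of miRNAs were used to describe cell types and pathways by counts and medians. Of all listed sequences, 0.573% were called, 7.9% were higher and 6.3% lower at an unadjusted p under 0.05, and 397 had a log2FC above 0 and 476 below. In the muscle list 3 of 7 miRNAs were found (miR-1, miR-206 and miR-499), with 8 sequences, a median log2FC of 2.21 and 5 sequences higher at an unadjusted p under 0.05. Its summed level was 1133 to 3965 normalized reads on PD16 and 43686, 4432, 8219, 1410, 3165 and 2408 on PD20, and its median was 0.70 without PD20 no. 1. Without that library, 3 were higher at an unadjusted p under 0.05. With the quasi-likelihood test 0 of the 8 were called, with the likelihood ratio test 4 and in the fit of all 30 libraries 3. DESeq2 called 0 and had 1 higher at an unadjusted p under 0.05. The smooth muscle list, miR-143 and miR-145, had 31 sequences of which 31 had a log2FC above 0, 19 had an unadjusted p under 0.05 and 1 was called. Its median was 1.20 with all libraries and 0.42 without PD20 no. 1, where 25 had a log2FC above 0, 2 had an unadjusted p under 0.05 and 0 were called. The called form of miR-143-3p, with a log2FC of 1.53 without this library, belongs to the second list, and the part of muscle RNA in it was not tested.

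The epithelial list had 72 sequences of 12 miRNAs, a median log2FC of -0.15 (0.04 without PD16 no. 1), 7 higher and 4 lower at an unadjusted p under 0.05, beside 7.9% and 6.3% of all listed sequences, and 0 called. Its most abundant member, miR-200c-3p, had 6575 ± 1998 (SD, n = 5) and 4533 ± 1144 (SD, n = 6) normalized reads (log2FC -0.54 ± 0.31 SE, edgeR adjusted p = 0.422). The fibroblast list of miR-199 and miR-214 had 23 sequences, a median of -0.15 (-0.28 without PD20 no. 4 and -0.08 without PD16 no. 5), 0 higher and 1 lower. Whatever their p, 3 of the 23 had a log2FC above 0 and 20 below, beside 397 and 476 of all listed sequences. The endothelial miR-126 had 17, a median of 0.20 (0.45 without PD16 no. 1 and 0.12 without PD20 no. 2), 2 higher and 0 lower, and its leading sequence, miR-126-3p 3' DEL G, had 2082 ± 165 (SD, n = 5) and 1973 ± 381 (SD, n = 6) normalized reads.

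The 2 blood cell lists had log2FC above 0 in most members but no call. The erythroid list had 16 sequences, 15 with a log2FC above 0, a median of 0.42 and 1 at an unadjusted p under 0.05. The median was 0.21 without PD20 no. 5, with 0 at an unadjusted p under 0.05, and 0.84 without PD16 no. 2, with 5. Its sum ranged from 342 to 3653 normalized reads on PD16 and from 805 to 3957 on PD20, mostly miR-451 3' DEL T. The leukocyte list, in which miR-223 was not among the listed sequences, had 13 sequences, 12 above 0, a median of 0.41 and 0 at an unadjusted p under 0.05, and its leading sequence miR-342 3' DEL A had 42.4 ± 21.3 (SD, n = 5) and 44.0 ± 17.1 (SD, n = 6) normalized reads. The inflammation-linked list, which holds miR-146 and miR-21, had 33 sequences with a median of 0.13, 4 higher and 0 lower at an unadjusted p under 0.05 and 1 called, miR-146b 3' ADD TGT. Its median was -0.07 without PD20 no. 2, where 16 had a log2FC above 0 and 17 below, and 0.34 without PD16 no. 2.

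With the quasi-likelihood test of edgeR on all libraries, the other lists had no call. In the list of miR-23, miR-27 and miR-24, 1 was called with DESeq2, 1 with the likelihood ratio test and 1 without PD16 no. 1. In that of miR-34 and miR-449 the likelihood ratio test called 1. The medians were -0.15 for let-7 (62 sequences, 1 higher and 3 lower at an unadjusted p under 0.05), 0.11 for miR-30 (53 sequences, 7 and 2), -0.07 for miR-23, miR-27 and miR-24 (32 sequences, 0 and 3), -0.08 for the miR-17 family and its clusters (29 sequences, 1 and 0), 0.48 for the angiogenesis-linked list (21 sequences, 2 and 1) and 0.38 for miR-34 and miR-449 (14 sequences, 2 and 1). With 1 library left out, the median ranged from 0.26 to 0.63 for the angiogenesis-linked list and from 0.19 to 0.56 for miR-34 and miR-449. It ranged from 0.08 to 0.28 for miR-30, from -0.18 to -0.06 for let-7 and from -0.12 to -0.01 for the miR-17 family and its clusters, and that of miR-23, miR-27 and miR-24 was 0.17 without PD16 no. 3. Their leading sequences were let-7f, miR-30a-5p 3' ADD CT, miR-27b-3p, miR-25-3p, miR-221-3p 3' ADD C and miR-34c, and of these miR-27b-3p had the smallest p, with 6069 ± 2836 (SD, n = 5) and 3560 ± 1759 (SD, n = 6) normalized reads (log2FC -0.77 ± 0.37 SE, edgeR adjusted p = 0.347).

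**Figure D4:**
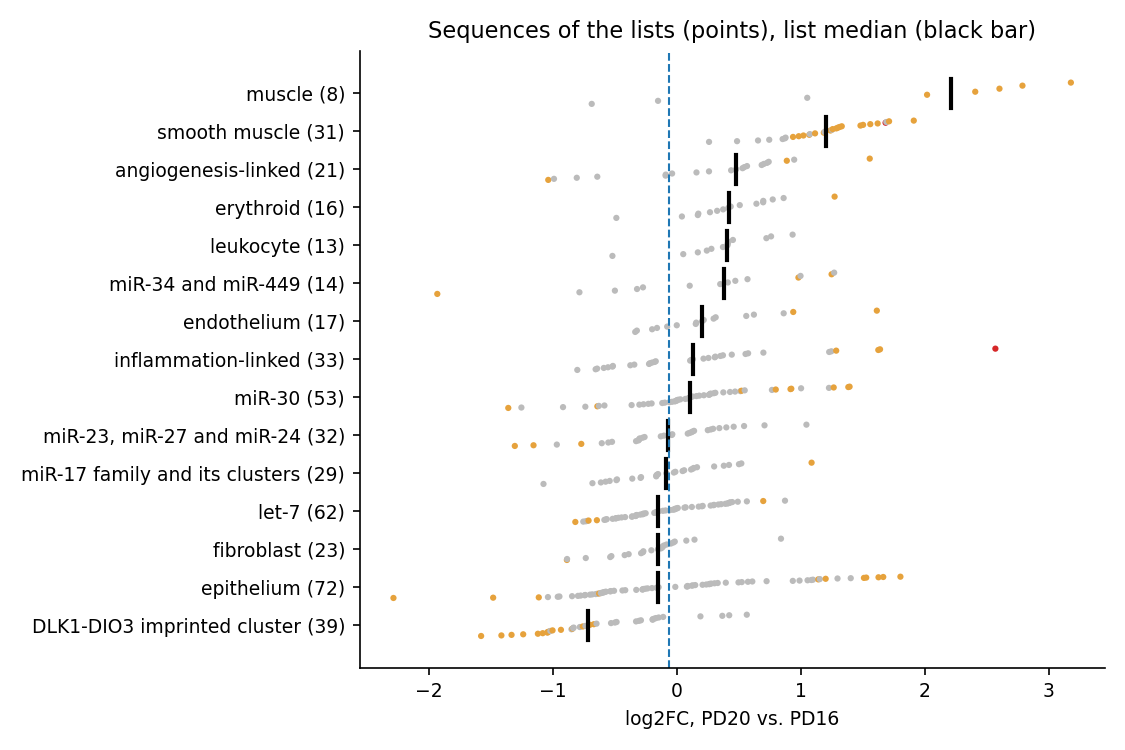
Log2FC (x axis, PD20 vs. PD16) of the listed sequences of each list (the embryonic list, with miR-302 alone, is left out), with the number of sequences in parentheses, list medians as black bars and the median of all listed sequences as a dashed line. Orange marks an unadjusted p under 0.05 and red a call, and the DLK1-DIO3 list lies lowest, at -0.72, while the 2 muscle lists lie highest.

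Over all reads of placed sequences, the share with a 3' addition was 29.6% ± 3.38 (SD, n = 5) on PD16 and 36% ± 5.98 (SD, n = 6) on PD20. The shares with a 3' deletion were 11.6% ± 1.78 and 10.7% ± 3.49, and those with a shifted 5' end 2.87% ± 1.80 and 2.43% ± 0.98. PD16 no. 1 had the highest share with a shifted 5' end, 6.02%, and PD20 no. 4 the next, 4.32%. Both libraries also had the highest shares with a 3' deletion, 14.1% and 16.9%. The sign of the change in shifted 5' ends depended on which library was left out. None of the 3 differences passed an exact two-sided permutation test over the libraries, with adjusted p of 0.195, 0.623 and 0.623. With equal weight of miRNAs, the changes in 3' additions and in 3' deletions had the opposite sign. By miRNA, the mean 3' end lay nearer the 5' end on PD20 in 61 of 88 arms, and 9 of these and 4 of the others had an exact permutation p under 0.05, with no adjusted p under 0.218. At the smallest p that these libraries allow, no single arm could pass after this adjustment. In miR-27b-3p, reads shorter than canonical made up 21.3% ± 3.43 (SD, n = 5) on PD16 and 33.4% ± 9.16 (SD, n = 6) on PD20, and in miR-23b, made from the same transcript, 62.1% ± 8.17 and 72.9% ± 2.43. In miR-320, of the 4 other arms, this share fell from 87.3% ± 1.16 to 82.9% ± 2.93. In miR-24-3p it was 91.8% ± 4.53 and 89.2% ± 3.23.

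In 45 miRNAs 2 arms could be told apart, and the log2 ratio of the more to the less abundant arm was compared between days. None passed, with the smallest adjusted p of the exact permutation test at 0.39. The smallest p that these libraries allow is 0.0043, so that no single ratio could pass after adjustment over all 45. The 3 smallest unadjusted p were those of miR-361, in which the ratio went from 2.16 ± 0.88 (SD, n = 5) to 0.91 ± 0.51 (SD, n = 6) on the log2 scale, of miR-127, from 7.22 ± 0.33 to 7.91 ± 0.60, and of miR-31, from -0.02 ± 0.74 to 1.06 ± 0.90. The lowest count of an arm in a library was 30 reads for miR-361 and 32 for miR-31. For miR-127 it was 2, so that its ratio is not exact.

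The test was repeated on every deposited sequence that reached 10 reads in 4 pregnancy libraries, together with the listed sequences. Of these 4621, 13 were called (0.281%), all of them higher on PD20. The list held 1 of these, miR-146b 3' ADD TGT, and 12 were not listed. Several of the 12 reached 10 reads in no PD16 library and thus passed the filter without PD16. Their direction is not independent of the filter. Of the 12, 1 was a still longer miR-146b with TGTT added to the canonical end, and 1 was the short miR-143-3p form with AAA in place of its last bases. The other 10 were between 26 and 31 bases long, and 9 of them, the first included, share a stretch of 13 or more bases with the first, in capitals here.
unlisted, 28 bases: GCATTGGTGGTTCAGTGGTAGAATTCTC
unlisted, 27 bases: gcatgGGTGGTTCAGTGGTAGAATTCT
unlisted, 29 bases: ATTGGTGGTTCAGTGGTAGAATTCTCgcc
unlisted, 28 bases: tccctggtggtctagtggttaggattcg
miR-143-3p short form with AAA, unlisted: tgagatgaagcactgtagaaa
miR-146b 3' ADD TGTT, unlisted: tgagaactgaattccataggctgtt
Mammalian glycine tRNA begins like the first of these and glutamate tRNA like the fourth. Fragments of the 5' part of tRNAs arise when angiogenin or other nucleases cut the anticodon loop, and no tRNA reference was matched here.

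The first of these sequences had 27.2, 54.9, 31.5, 35.0 and 28.1 reads per 1000000 deposited reads (RPM) in the PD16 libraries, and 156, 72.7, 312, 255, 302.5 and 326 in the PD20 libraries. The groups did not overlap, and PD20 no. 2 was the lowest of PD20. The log2FC was 2.75 ± 0.40 (SE, edgeR adjusted p = 0.00825). The short miR-143-3p form with AAA had between 0 and 0.493 RPM on PD16 and between 2.31 and 6.04 on PD20.

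All tested sequences that share at least 13 bases with the first numbered 100, between 17 and 31 bases long, and were summed as a description, since they were gathered after the calls were seen. Their sum had a median of 2131 RPM on PD16 (range 1361 to 3564) and of 8339 on PD20 (range 2466 to 20772). PD20 no. 1 and 4 lay within the PD16 range, and PD20 no. 6 held the most. On PD12 the median was 3682, and on CD16 and CD20 it was 1901 and 2328. Reads of 28 bases or more made up 1.46% ± 0.29 (SD, n = 5) of PD16 and 2.40% ± 0.88 (SD, n = 6) of PD20 libraries, with an exact two-sided permutation p of 0.0433 and 0.303 after adjustment over 7 library properties. The other 6 properties, total reads, share on the list, mean length, GC content, share of the 10 most abundant sequences and share of 22-base reads, had adjusted p of 0.333 or more.

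**Figure D5:**
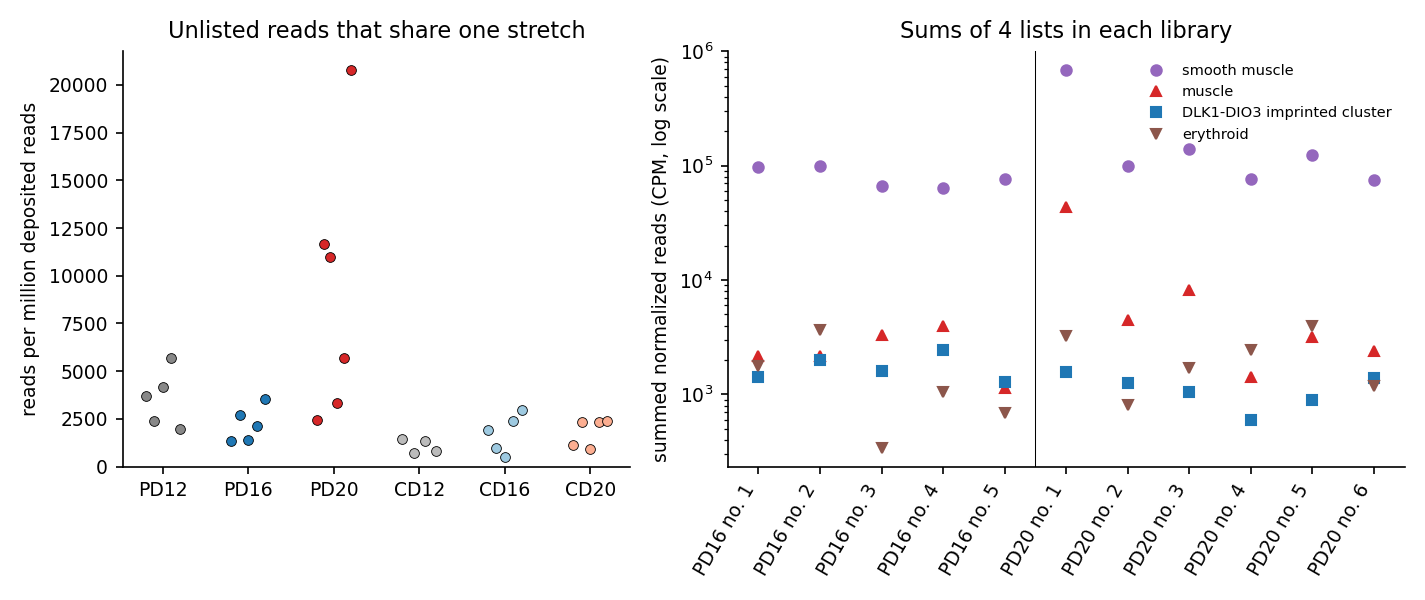
Left, RPM of deposited reads (linear y axis) of the 100 unlisted sequences that share 13 bases with the first unlisted call, 1 point per library in each of the 6 groups. Right, summed normalized reads (log y axis) of 4 lists in each PD16 and PD20 library. PD20 no. 6 is highest on the left with 20772, and PD20 no. 1 is highest for both muscle lists on the right.

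Whether the change from D16 to D20 was that of the cycle was tested as a difference of differences over all 30 libraries. Of the listed sequences, 21 were called (2.41%), 8 with a larger and 13 with a smaller log2FC in pregnancy, and 167 had an unadjusted p under 0.05. Of the 5 called sequences, miR-10b 3' DEL T was among them, with a log2FC of 1.53 in pregnancy and -0.15 in the cycle and a difference of 1.67 ± 0.47 (SE, edgeR adjusted p = 0.0452).

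For the others the difference did not pass. In the cycle, miR-10b 5' DEL T 3' DEL T and miR-143-3p 3' DEL CTC had log2FC of -0.14 and 0.16. Their differences from pregnancy had edgeR adjusted p of 0.0655 and 0.0715. miR-146b 3' ADD TGT had 63.7 ± 31.7 (SD, n = 5) normalized reads on CD16 and 156 ± 65.9 (SD, n = 5) on CD20, a log2FC of 1.30 ± 0.42 (SE, edgeR adjusted p = 0.0503), and the difference from pregnancy was 1.33 ± 0.58 (SE, edgeR adjusted p = 0.201). miR-193b-3p, not called as a sequence, likewise had 14.8 ± 11.2 on CD16 and 39.4 ± 22.5 on CD20 (SD, n = 5). Its difference from pregnancy was 0.39 ± 0.74 (SE, edgeR adjusted p = 0.806). For miR-302 the fit of this contrast gave no usable error, since PD16 and CD16 held no read, and CD20 libraries held 2, 0, 0, 0 and 1 reads.

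Among sequences with a lower mean on PD20, miR-411 5' DEL A 3' ADD G had a log2FC of -1.18 in pregnancy and 0.76 in the cycle, a difference of -1.94 ± 0.45 (SE, edgeR adjusted p = 0.0431), and miR-449a -1.86 and 1.49, a difference of -3.34 ± 0.89 (SE, edgeR adjusted p = 0.044). Canonical miR-1 had 2.76 and -0.57, a difference of 3.33 ± 0.89 (SE, edgeR adjusted p = 0.044), which was 1.64 without PD20 no. 1 (edgeR adjusted p = 0.0992). Without that library the edgeR adjusted p was 0.0509 for miR-10b 3' DEL T and for miR-411 5' DEL A 3' ADD G and 0.0781 for miR-449a. The count of 21 rested on few libraries. It was 2 without PD20 no. 1, 1 without PD16 no. 1, PD20 no. 5 or CD16 no. 2, 0 without PD16 no. 5, CD16 no. 5, CD20 no. 1 or CD20 no. 2, and 34 without PD20 no. 4.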

How the data were processed

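The authors deposited, for each library, the count of reads of every distinct sequence. By the methods, 2 runs were joined, adapters were removed, and reads with a low quality base, with unknown bases or shorter than 17 nt were left out before collapsing. Totals were not normalized. Reads are not molecules, so the floor of 3 reads covers counting error only. SD and SE also include variation between libraries.

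Each annotated sequence received the count of the identical deposited sequence. An isomiR was aligned with its canonical form through an ungapped overlap of 12 bases or more. Where names give no arm, the more abundant was taken as the major arm. Counts of the 16 pregnancy libraries were fitted in edgeR 4.0.16 (R 4.3.3) with 1 mean per day, TMM and a prior count of 0.125, and p-values were adjusted by Benjamini-Hochberg over all sequences, arms or families. Single values were compared by exact permutation (scipy 1.17.1). The scripts were tested on simulated data. Sequences named were those called, the 10 of smallest p on either side, those of the RT-PCR assays, the leading sequence of each list and the 5 most abundant. The members and lists were chosen with earlier results of these data known. Replicate numbers do not pair the animals. Where all libraries of a group held 3 reads or fewer, folds were computed against 3 reads per library. Columns of the authors' own comparisons were not used. The alternatives were the likelihood ratio test, DESeq2 1.42.0, RLE, all deposited reads as library size, a minimum of 10 CPM, all deposited sequences, other sets of libraries, blocks, and each library left out. The multiplex pool of a library is not given in the sources used here.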

Additional observations from a re-analysis of the deposited data

Results flagged for a closer look

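In 92 groups of 5 or 6 libraries (the named sequences on each day), 12 held a library far from the others. About 1 in 20 groups of independent, normally distributed values would be expected to hold one by chance, and several of these sequences are forms of the same miRNA. PD20 no. 1 accounted for 6 of them. It held 373694 normalized reads of canonical miR-143-3p, with 57675 in the next library, 261017 of miR-143-3p 3' ADD T (next 68039), 1655 of canonical miR-1 (next 162), 39147 of miR-1 3' ADD T (next 7772), 17.8 of miR-193 (next 7.35) and 6950 of miR-27b-3p (next 3848).

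The others were single libraries of PD16 and PD20. PD16 no. 1 held 137 normalized reads of miR-361-5p and 378 of miR-191, PD16 no. 2 held 5.00 of miR-205 and 78.2 of miR-23a 3' DEL C, PD16 no. 5 held 6534 of miR-34c, and PD20 no. 4 held 233 of miR-191.

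Of the named sequences, 4 differed between pregnancy and cycle in the change from D16 to D20 by the test of the difference itself in edgeR. The log2 difference was 1.67 for miR-10b 3' DEL T, -1.94 for miR-411 5' DEL A 3' ADD G, 3.33 for canonical miR-1 and -3.34 for miR-449a. Without PD20 no. 1 none of the 4 passed, with edgeR adjusted p between 0.0509 and 0.0992. The difference of canonical miR-1 was then 1.64.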

How the results depend on the processing

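The number of sequences called, 5 as reported, was 21 with the likelihood ratio test, 15 with DESeq2, 2 with library size from all deposited reads, 13 with all deposited sequences, 1 with only the 11 libraries of PD16 and PD20 and 11 with 1 fit of all 30 libraries. Of the 4 arms called, 2 were called with library size from all deposited reads, where the median log2FC of all arms was -0.32, and of the 3 families 1, while DESeq2 called 5 families. The 21 differences from the cycle were 47 with the likelihood ratio test. That scaling by all deposited reads left 20, of which 1 was larger and 19 smaller in pregnancy, against 8 and 13. The causes were not tested. miR-146b 3' ADD TGT was called under each of the 10 other settings. With 1 library left out, the calls ranged from 1 to 9 for sequences, 2 to 5 for arms, 0 to 5 for families and 0 to 34 for the differences from the cycle. The number of arm ratios that passed was 0 in every such fit, in which so few libraries allow no single ratio to pass after adjustment.

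The replicate numbers of the labels do not pair the animals. In 0 of 5 pairs was the correlation of deviations from the group means over 0.1 (from -0.64 to 0.0999), and 0 PD16 libraries correlated best with their own number. The highest such correlation across the days was 0.77, between PD16 no. 1 and PD20 no. 4, and its cause was not tested. A block for the replicate number gave 3 called sequences, 4 arms and 4 families and 0 differences from the cycle (150 at an unadjusted p under 0.05).

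With equal weight of miRNAs, the change in the share of 3' deletions went from -0.89 to 1.77 percentage points and that of 3' additions from 6.40 to -0.21. With 1 library left out, the changes ranged from -2.13 to 0.0044 for 3' deletions, from 4.74 to 8.01 for 3' additions and from -0.81 to 0.36 for shifted 5' ends.

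Of the named sequences that were not called, 7 had log2FC that changed sign. With library size from all deposited reads it was -0.023 for miR-25-3p and -0.050 for miR-342 3' DEL A. With 1 library left out it ranged from -1.20 to 0.49 for miR-191, -0.39 to 0.20 for miR-21, -0.15 to 0.045 for miR-199b-5p, -0.25 to 0.086 for miR-148a-3p, -0.15 to 0.011 for miR-126-3p 3' DEL G, -0.062 to 0.31 for miR-25-3p and -0.077 to 0.34 for miR-342 3' DEL A.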
